A study of Danio rerio with 6 samples.

Results

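Radial glia act as stem cells in the brain of adult fish, where they line the ventricles with long processes that reach the brain surface. In the fish telencephalon they are also the cells that make brain aromatase, the enzyme that converts androgens to estrogens. Their usual marker transcripts encode a cytoskeleton of intermediate filaments, small lipid- and calcium-binding proteins, the enzyme and transporters that clear glutamate from synapses, and midkines, which are secreted heparin-binding growth factors. The genes described here are 9 of these structural and metabolic genes: gfap, fabp7a, vim, s100b, glula, slc1a2b, slc1a3b, mdka and mdkb. Of the 9, 8 had a probe set with that single gene symbol, each gene 1 probe set, among 15502 probe sets and 8793 named genes in all. The remaining gene, slc1a3b, had no such probe set and was skipped.

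Transcripts were measured in pooled telencephalons, the foremost brain region, of mature male zebrafish. Males exposed for 10 days to 200 µg/L of the aromatase inhibitor fadrozole (3 arrays) were set against control males (3 arrays), with about 30 telencephalons pooled for each array. No strain, genotype or age in days is given for either group in the sources used here, nor what the control water held. The comparison asks how transcripts of this brain region differ when aromatase is inhibited.

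Each deposited value is a ratio to the median of the 3 control arrays, so a value of 1 means the control median of that probe set. Control replicate 1 was at exactly 1 for all 8 genes, as it was for 41.0% of all rows of the table. Levels cannot be compared between genes on this scale. For the same reason the tissue and the cell type could not be checked by how strongly their markers were expressed, and a weak signal cannot be told from a strong one. For differences, the ratios were put on the log2 scale and the overall shift of each array was removed. The shifts were -0.07, 0.15 and -0.09 on fadrozole replicates 1, 2 and 3, and -0.11, 0.25 and -0.14 on control replicates 1, 2 and 3. The slide numbers in the labels fall into 2 sets, read here as slide runs. The larger holds replicates 1 and 3 of both groups and the smaller replicate 2 of both groups. The labels name no run, and the split cannot be told apart from a difference of replicate 2 from replicates 1 and 3.

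The radial glia genes lay close to their control levels on the fadrozole arrays. Log2 differences, fadrozole minus control, ran from -0.26 for the midkine gene mdka to 0.20 for the calcium-binding protein gene s100b. Of the 8 genes 4 had a positive and 4 a negative difference, with a median of 0.02. Over all probe sets 49.9% were positive and the median was -0.002. In limma 0 of the 8 passed an adjusted p of 0.05, and 0 had an unadjusted p under 0.05, where the share of all probe sets was 0% and 4.23%. In 0 of the 8 did the 3 fadrozole arrays all lie on the same side of the 3 control arrays, which was so for 7.83% of all probe sets. Also 0 of the 8 differed by 1.5-fold or more, as 30.9% of all probe sets did. With 8 genes, the first 3 of these shares would each give fewer than 1 gene, so counts of 0 there do not set the members apart from the rest. RNA of whole telencephalons was measured, so fewer radial glia and less RNA per cell cannot be told apart, and neither can a constant total from changes in both.

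The precision of these differences was finer than for most probe sets. All 8 differences were smaller than their standard errors in limma, as were 68.6% of those of all probe sets. These standard errors draw in part on the spread of all probe sets, not on that of the gene alone. The 95% confidence intervals of limma all included 0 and all lay within 2-fold in both directions, which held for 25.7% of all probe sets. The interval for s100b reached up to 1.91-fold higher and that for mdka up to 1.97-fold lower. Within 1.5-fold in both directions lay 0 of the 8 intervals. Even for mdkb, whose spread within groups was at percentile 1.02 of all probe sets, the interval ran from -0.68 to 0.52. The same count was not made over all probe sets. Standard errors formed in this way leave little room within 1.5-fold even at a small spread, so the 0 is not read as a trait of the members.

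**Figure D1:**
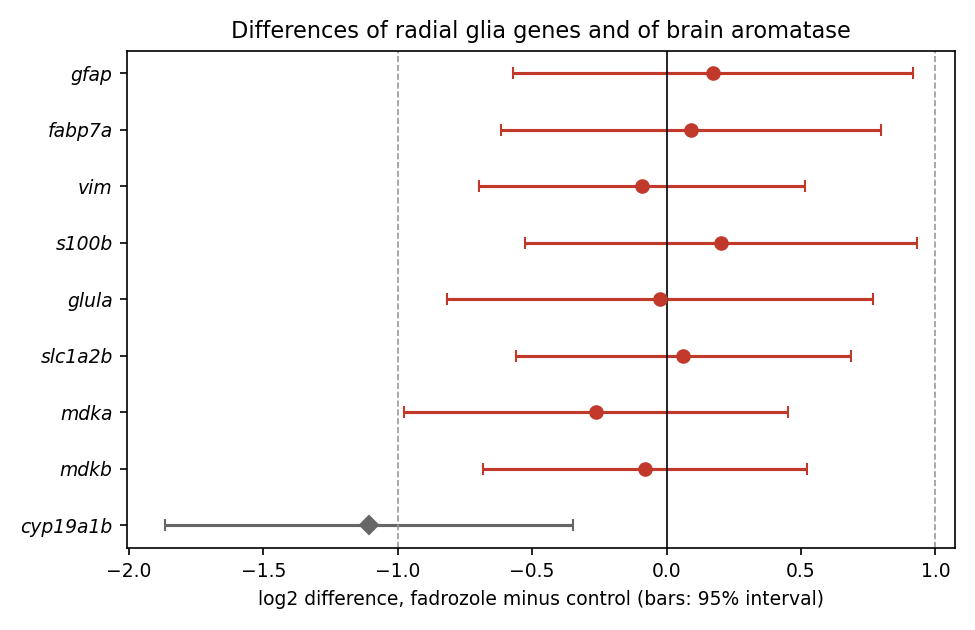
Log2 difference, fadrozole minus control, of each radial glia gene (circles) and of the brain aromatase gene cyp19a1b (diamond, mean of its 3 probe sets), with 95% confidence intervals of limma as bars; dashed lines mark 2-fold. All 8 intervals of the circles include 0 and lie within 2-fold, and that of cyp19a1b runs from -1.87 to -0.35.

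Of the filament genes, gfap (NCBI gene 30646) encodes glial fibrillary acidic protein, the main intermediate filament of mature radial glia and astrocytes. Its probe set had deposited ratios of 1.115, 1.368 and 1.186 on fadrozole replicates 1, 2 and 3, against 1, 0.979 and 1.301 on control replicates 1, 2 and 3. The fadrozole arrays lay close together and inside the range of the control arrays once shifts were removed, at 0.29 ± 0.06 against 0.11 ± 0.40 on the log2 scale (SD, n = 3 each). The log2 difference was 0.17 ± 0.30 (SE, interval from -0.57 to 0.92, limma adjusted p = 0.999). It rested on the smaller slide run, where the difference was 0.58, against -0.03 in the larger one. Leaving out control replicate 2, the lowest of the control arrays, gave -0.02, and leaving out control replicate 3, the highest, gave 0.37.

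Vimentin, encoded by vim (NCBI gene 140599), is the filament protein that radial glia and other progenitors share with many non-neural cells. Its ratios were 1.03, 0.976 and 0.952 on fadrozole replicates 1, 2 and 3, against 1, 1.242 and 0.943 on control replicates 1, 2 and 3. After the shifts were removed the 3 control arrays lay within a narrow band, at 0.07 ± 0.03 (SD), and the fadrozole arrays spread around it, at -0.02 ± 0.15 (SD). For vim the log2 difference came to -0.09 ± 0.25 (interval from -0.70 to 0.52), with -0.01 in the larger slide run and -0.25 in the smaller one.

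The lipid-binding gene fabp7a (NCBI gene 58128) encodes brain lipid-binding protein, a fatty acid carrier that marks radial glia from early development onward. It had ratios of 1.301, 1.491 and 1.13 on fadrozole replicates 1, 2 and 3, against 1, 1.905 and 0.961 on control replicates 1, 2 and 3. The highest value belonged to control replicate 2, and all 3 fadrozole arrays lay between it and the other control arrays. Its log2 difference was 0.09 ± 0.29 (interval from -0.62 to 0.80), with 0.26 in the larger slide run and -0.25 in the smaller one. With quantile normalisation of the arrays it was -0.04, and without control replicate 3 it was -0.01.

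The calcium-binding protein gene s100b (NCBI gene 436825) had the highest positive difference of the 8. Its ratios were 1.186, 1.688 and 1.18 on fadrozole replicates 1, 2 and 3, against 1, 1.81 and 0.867 on control replicates 1, 2 and 3. In both groups replicate 2 stood above replicates 1 and 3. The log2 difference was 0.20 ± 0.30 (interval from -0.53 to 0.93), made up of 0.30 in the larger slide run and -0.0007 in the smaller one. It stayed positive when any 1 array was left out, from 0.06 without control replicate 3 to 0.40 without control replicate 2.

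For the handling of glutamate, glula (NCBI gene 100000775) encodes glutamine synthetase, which turns glutamate taken up by glia into glutamine. Its ratios were 0.927, 1.305 and 0.954 on fadrozole replicates 1, 2 and 3, against 1, 1.728 and 0.711 on control replicates 1, 2 and 3. The control arrays held both the highest and the lowest value, and its spread over the 6 arrays, 0.89 on the log2 scale, was the widest of the 8 genes. For glula the log2 difference was -0.02 ± 0.32 (interval from -0.82 to 0.77), the smallest in size of the 8, with 0.12 in the larger slide run and -0.31 in the smaller one. It ran from -0.25 without control replicate 3 to 0.19 without control replicate 2, so these arrays give it no direction.

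The transporter gene slc1a2b (NCBI gene 335836) encodes a glial glutamate transporter of the EAAT2 type, which takes up glutamate from the synaptic cleft. It had ratios of 0.924, 1.325 and 0.965 on fadrozole replicates 1, 2 and 3, against 1, 1.249 and 0.839 on control replicates 1, 2 and 3. The ratios of the groups were interleaved, and after the shifts were removed the groups were at 0.08 ± 0.15 and 0.02 ± 0.12 (SD, n = 3 each) for fadrozole and control. The log2 difference was 0.06 ± 0.25 (interval from -0.56 to 0.68), with 0.002 in the larger slide run and 0.19 in the smaller one.

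The paralogs slc1a3a and glulb, named for that relation after their values were seen, had differences smaller than their standard errors. The gene slc1a3a, paralog of the unmeasured slc1a3b and coding for a transporter of the EAAT1 type, differed by -0.17 ± 0.24 (limma adjusted p = 0.999). For glulb, a second glutamine synthetase gene, the difference was 0.18 ± 0.28 as the mean of its 2 probe sets, which were at 0.36 ± 0.52 and -0.002 ± 0.29. Without fadrozole replicate 2 slc1a3a was at -0.075, and without control replicate 2 glulb was at 0.003.

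**Figure D2:**
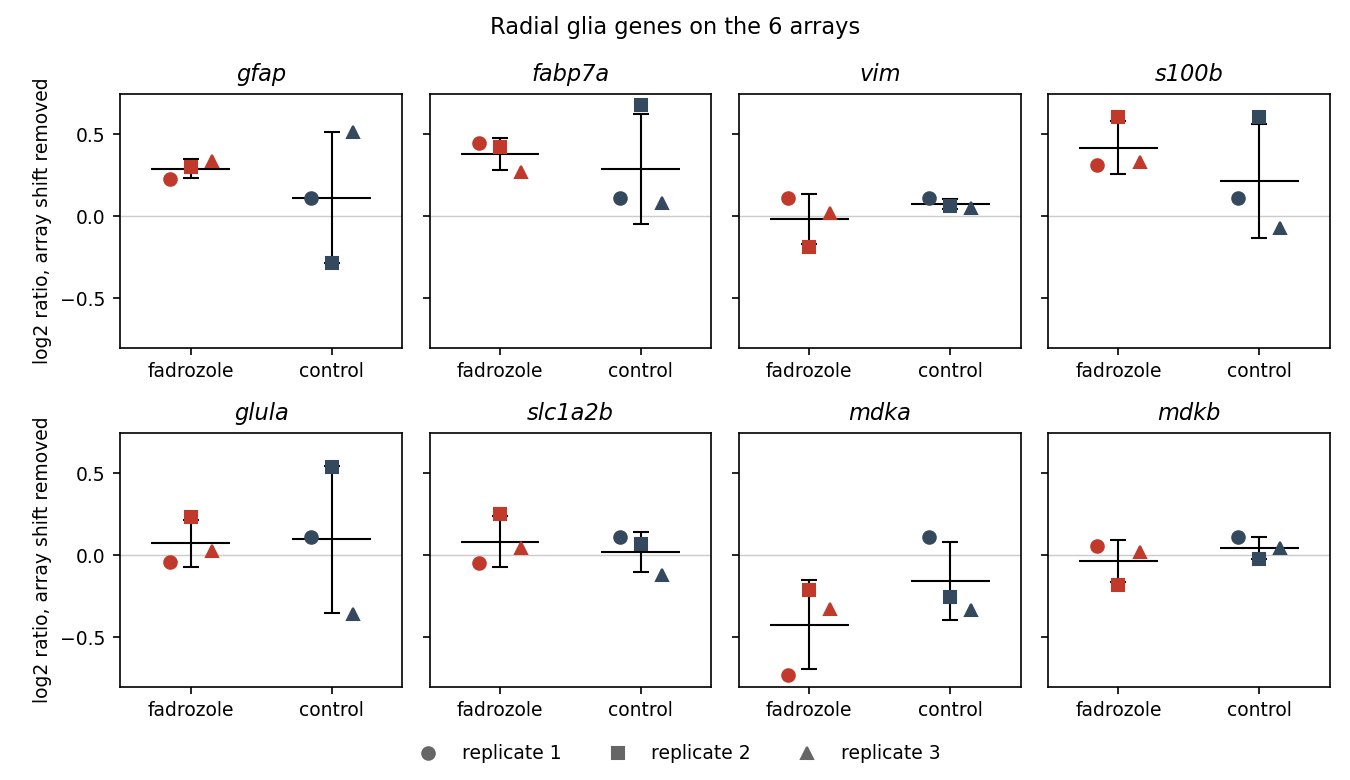
Log2 ratio to the control median, with the array shift removed, of the 8 radial glia genes on the 3 fadrozole and the 3 control arrays; symbols give the replicate number, horizontal lines the group mean and bars the SD (n = 3). The groups overlap for every one of the 8 genes, and the control SD ranges from 0.03 for vim to 0.45 for glula.

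The midkine genes mdka and mdkb are fish duplicates of a single ancestral gene for a secreted growth factor. The probe set of mdka (NCBI gene 30277) had ratios of 0.575, 0.962 and 0.746 on fadrozole replicates 1, 2 and 3, against 1, 1 and 0.722 on control replicates 1, 2 and 3. Fadrozole replicate 1 was the lowest value of any of the 8 genes on any array, while the other 2 fadrozole arrays lay within the range of the controls. The log2 difference of -0.26 ± 0.29 (interval from -0.98 to 0.45, limma adjusted p = 0.999) was the largest in size of the 8. Without fadrozole replicate 1 it was -0.11, and without control replicate 1 it was -0.13. Between same-numbered arrays the values were -0.84, 0.04 and 0.005 for replicates 1, 2 and 3.

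Its duplicate mdkb (NCBI gene 65231) was among the steadiest transcripts on the arrays. It had ratios of 0.99, 0.981 and 0.949 on fadrozole replicates 1, 2 and 3, against 1, 1.175 and 0.938 on control replicates 1, 2 and 3. Between the groups mdkb differed by -0.08 ± 0.25 on the log2 scale (interval from -0.68 to 0.52), with -0.04 in the larger slide run and -0.16 in the smaller one. It was the only one of the 8 genes whose 3 differences between same-numbered arrays had the same sign, at -0.06, -0.16 and -0.03 for replicates 1, 2 and 3. That pattern held for 24.9% of all probe sets. For vim only replicate 1, at 0.0006, broke it, and for s100b only replicate 2, at -0.0007.

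**Figure D3:**
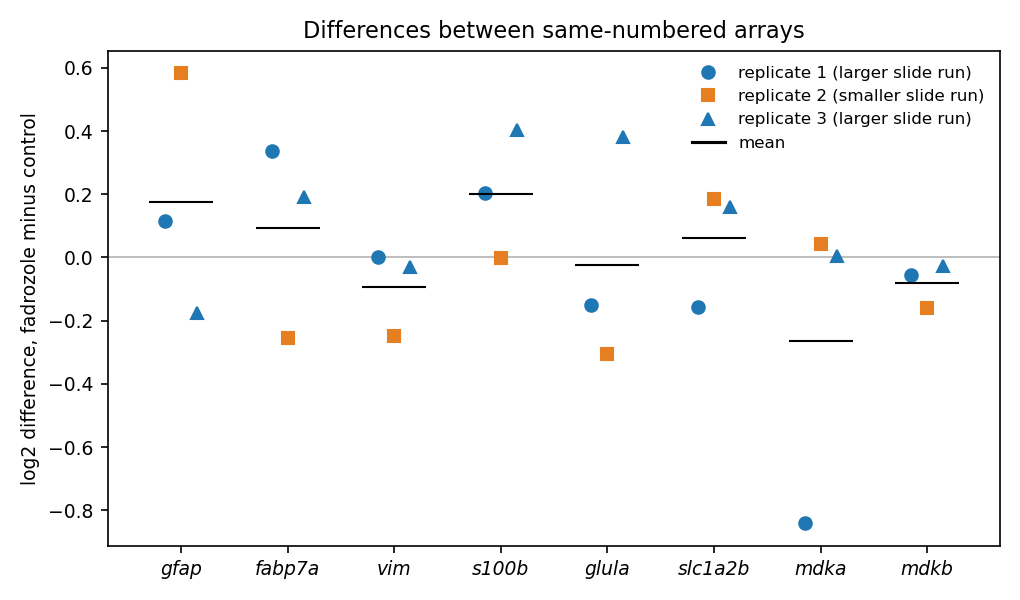
Log2 difference between the fadrozole and the control array of the same replicate number for each radial glia gene, with squares for the smaller slide run, circles and triangles for the larger one, and lines for the mean. The 3 values lie on both sides of 0 for 7 of the 8 genes, and the lowest is replicate 1 of mdka at -0.84.

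For 7 of the 8 genes, all but mdka, the difference between the slide runs was larger in size than that between the groups. The first sets 2 arrays against 4 and the second 3 against 3, so the sizes are not measured alike. The same count was not made over all probe sets, so whether it sets the members apart is not known. Averaged over both groups, replicate 2 lay above replicates 1 and 3 by 0.45 for glula, 0.43 for s100b, 0.32 for fabp7a, 0.16 for slc1a2b and 0.09 for mdka on the log2 scale, and by -0.29 for gfap, -0.16 for mdkb and -0.14 for vim. For glula and s100b both replicate 2 arrays exceeded the other 4 arrays, and for mdkb both lay below them. These are 3 of 8 genes, beside 23.1% of all probe sets that separated the slide runs in this way. Whether the slide run plays a part in the members' spread was not tested. Each run holds the groups in equal number, so the run as a block in limma leaves the differences unchanged by construction. Their standard errors with the block were between 0.22 and 0.29.

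The similarity of profiles was measured as the mean absolute difference in log2 ratio over the 6 arrays, after each gene's own mean was removed. By it vim and mdkb were the closest pair of the 8, at 0.03, and each was the second most similar of all named genes to the other. The next pair was fabp7a and s100b at 0.10, and the least similar was gfap and glula at 0.37. The measure is not scaled to spread, so genes of small spread lie close together whatever their pattern. Within groups vim and mdkb had the smallest SD of the 8, at 0.11 and 0.10. The largest were those of gfap and glula, at 0.29 and 0.33. The order of these pairs therefore does not show shared or opposed patterns. The single most similar named gene was gnb1b for vim (0.03), clptm1l for mdkb (0.02), sod1 for fabp7a (0.04), ube2al for glula (0.02), copa for slc1a2b (0.04), faxdc2 for mdka (0.05), birc6-as2 for s100b (0.03) and si:ch73-112l6.1 for gfap (0.07). Each was picked as the best of 8792 genes over only 6 arrays, and these values describe these arrays alone.

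A feature that all 8 genes shared was a small spread between replicates. Spread was not part of the rule that chose them, though earlier results of these data were known at the choice. Their SD within groups ran from 0.10 for mdkb to 0.33 for glula on the log2 scale, with a median of 0.25, against a median of 0.63 over all 15502 probe sets. All 8 lay in the lower part of the distribution, from percentile 1.02 for mdkb, 1.54 for vim and 3.14 for slc1a2b up to percentile 19.1 for gfap and 25.1 for glula. Low spread was not particular to them by this description. A list of 15 measured genes of mature neurons had a median SD of 0.20, and one of 13 genes of the glutamate and glutamine cycle had 0.30. These lists use 1 value per gene, the mean of its probe sets, for which the median SD of all named genes was 0.53.

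**Figure D4:**
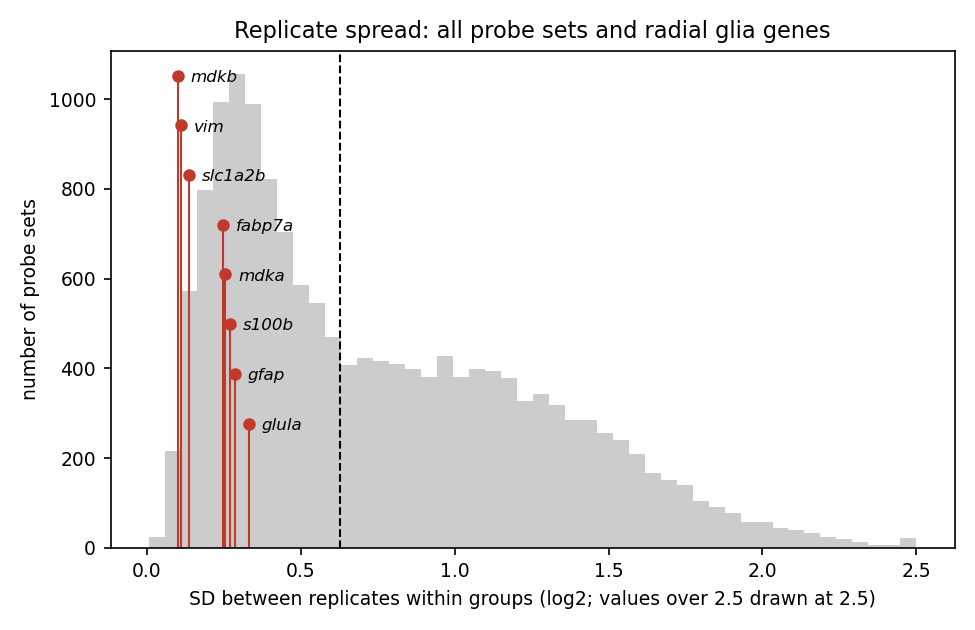
Number of probe sets by SD between replicates within groups on the log2 scale (grey bars, all 15502 probe sets; dashed line, their median of 0.63), with the 8 radial glia genes as red pins whose height has no meaning. All 8 pins stand left of the dashed line, between 0.10 and 0.33.

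Brain aromatase, which radial glia are known to make, is encoded by cyp19a1b. As a mean of 3 probe sets, its log2 values were -0.73, -1.50 and -0.90 on fadrozole replicates 1, 2 and 3, against 0.37, -0.13 and -0.04 on control replicates 1, 2 and 3. Its 3 probe sets differed by -2.01 ± 0.28, -1.13 ± 0.44 and -0.18 ± 0.41, so the mean holds a wide range. Their limma adjusted p were 0.768, 0.999 and 0.999, and none of all probe sets had one smaller than 0.768. The values that follow use the mean of the 3 alone. The groups did not overlap, as for 7.82% of all named genes, and the log2 difference of -1.11 ± 0.31 had a limma adjusted p of 0.945. Relative to gfap on the same array, cyp19a1b was at -1.33 ± 0.43 on the fadrozole arrays and -0.05 ± 0.45 on the control arrays (SD, n = 3 each). The difference of -1.28 between the groups had a two-sided exact permutation p of 0.1, the smallest that 3 against 3 arrays allow. Relative to each of the 8 genes in turn, it ran from -1.31 for s100b to -0.84 for mdka, with the same p each time. On its own cyp19a1b also had an exact permutation p of 0.1, so scaling to any of the 8 genes could not have lowered it. The 8 comparisons share the same cyp19a1b values and are not independent of each other. Before scaling, the cyp19a1b groups were already parted by the gap from -0.73 to -0.13. Over the 6 arrays mdkb, vim and slc1a2b ranged by only 0.29, 0.30 and 0.37. For these genes scaling could not have brought overlap, so their permutation p of 0.1 was fixed beforehand.

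Related genes were followed in lists by family and pathway, with 0 genes called in limma after adjustment in any of them, as in all 8793 named genes (0%). Of all named genes 50.0% were higher. At an unadjusted p under 0.05 the share of all named genes was 4.09%. Of 13 measured genes of glutamate uptake and the glutamine cycle 6 were higher and 7 lower, with a median log2 difference of -0.03 (0.16 without fadrozole replicate 1), and 0 had an unadjusted p under 0.05. The smallest p in that list belonged to the mitochondrial transaminase gene got2a at -0.62 ± 0.48 and to the amino acid transporter genes slc38a4 at 0.33 ± 0.28 and slc1a4 at 0.41 ± 0.39. Leaving out 1 array gave got2a values from -0.97 to -0.11 (without fadrozole replicate 1), slc38a4 values from 0.11 (without control replicate 1) to 0.47 and slc1a4 values from 0.13 (without control replicate 3) to 0.73. Of 18 intermediate filament and lamin genes 12 were lower and 6 higher, with a median of -0.22 and 0 with an unadjusted p under 0.05. The keratin gene krt4 was at -1.12 ± 0.71, the lamin gene lmnb1 at 0.53 ± 0.35 and the neuronal filament gene prph at -0.49 ± 0.34, whose 4 probe sets ran from -1.83 to 0.78. With 1 array left out krt4 ran from -1.57 to -0.50, lmnb1 from 0.31 to 0.80 and prph from -0.75 to -0.27, each nearest to 0 without control replicate 3. Without that array the median of the filament list was 0.07.

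A list of fatty acid and retinoid carriers other than fabp7a had 11 measured genes, 7 higher and 4 lower, with a median log2 difference of 0.54 beside -0.0002 for all named genes. It held 6 fatty acid binding protein genes, 4 higher and 2 lower, and 5 retinoid carrier genes, 3 higher (crabp1a, rbp2a and rbp4) and 2 lower (crabp2a and crabp2b). In limma 2 had an unadjusted p under 0.05, both higher, and 3 had no overlap between the groups, beside 7.82% of all named genes. These were fabp2, the intestinal form, at 2.47 ± 0.43, fabp6, the ileal bile acid carrier, at 2.07 ± 0.58, and fabp10a, the liver form of fish, at 0.74 ± 0.31, with adjusted p of 0.665, 0.945 and 0.999. The log2 values of fabp2 were 3.18, 1.99 and 2.97 on fadrozole replicates 1, 2 and 3, against 0.11, 0.78 and -0.18 on control replicates 1, 2 and 3. All 3 are best known from gut or liver, and the deposited ratios do not show how strongly any of them was expressed in the telencephalon. The heart-type gene fabp3 was at -0.0009 ± 0.24.

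Midkine partners and receptors had 8 measured genes, 3 higher and 5 lower, with a median of -0.06 (from -0.18 without fadrozole replicate 1 to 0.18 without control replicate 3) and 0 with an unadjusted p under 0.05. They included the proteoglycan gene ncana at -2.16 ± 1.00, whose 3 fadrozole arrays ran from -4.02 to -0.08, the receptor gene lrp1bb at 1.53 ± 1.01 and the syndecan gene sdc4 at -0.28 ± 0.28, whose 2 probe sets were at -0.78 and 0.23. Leaving out 1 array, ncana ran from -3.16 to -1.19 (without fadrozole replicate 3), lrp1bb from 0.86 (without fadrozole replicate 1) to 2.54 and sdc4 from -0.44 to -0.11 (without control replicate 3). Of 9 other S100 family genes 6 were higher and 3 lower, with a median of 0.12 (0.014 without fadrozole replicate 3). One, s100v1 at -1.89 ± 0.73, had an unadjusted p under 0.05, and its groups overlapped, while icn2 was at 0.91 ± 0.43 and s100a1 at 2.23 ± 1.11. Without control replicate 2 s100a1 was at 1.12, and without control replicate 1 at 3.16. In a list of 29 other genes of radial glia and astroglia 13 were higher and 16 lower, with a median of -0.007. Besides cyp19a1b, only prom1b, which encodes the stem cell surface protein prominin, had an unadjusted p under 0.05, at 1.40 ± 0.47 without overlap between the groups and an adjusted p of 0.999. In the same list pla2g4aa was at 0.74 ± 0.52 (0.32 without control replicate 2), and the main astroglial connexin gene gja1b, named after its value was seen, at -0.10 ± 0.33.

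**Figure D5:**
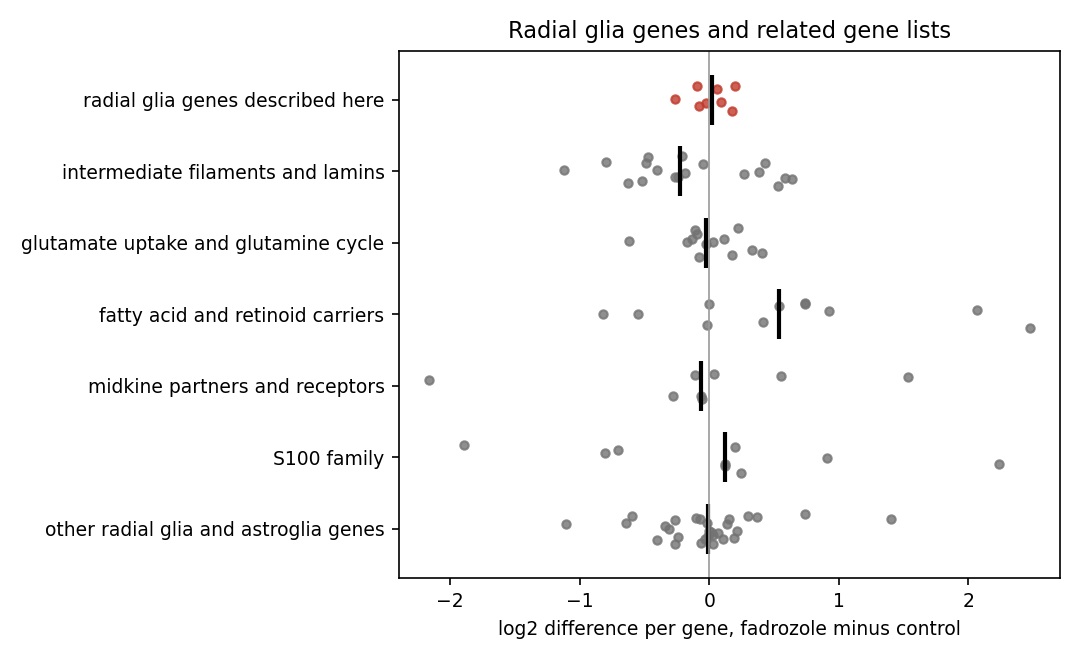
Log2 difference per gene, fadrozole minus control, for the 8 radial glia genes (red) and for 6 lists of related genes (grey), with the median of each as a vertical line; vertical position within a list has no meaning. The red points lie between -0.26 and 0.20, while the other lists reach from -2.16 to 2.47. The lists differ in size and in replicate spread, so these ranges are not measured alike. The median SD within groups was 0.25 for the 8 genes. For the related lists it ran from 0.30 (glutamate uptake and glutamine cycle) to 0.96 (midkine partners and receptors).

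Markers of other cells the pools could hold had no member called by limma after adjustment either. Of their 106 measured genes 8 had an unadjusted p under 0.05, 4 higher and 4 lower, beside 4.09% of all named genes, and 10 had no overlap between the groups, beside 7.82%. Among the 8, named after their values were seen, were the hindbrain gene hoxb5a at -2.57 ± 0.33 and the myelin gene pmp22b at -1.28 ± 0.26. The collagen gene col6a3 was at 2.21 ± 0.49, and the limma adjusted p of these 3 were 0.471, 0.703 and 0.830. Also among the 8, pax7a of the list of hoxb5a was higher at 0.82 ± 0.24, and zic4 of that list was lower at -2.29 ± 0.77. In the list of pmp22b, pmp22a was higher at 1.33 ± 0.49. From microglia and leukocytes came lgals9l1, lower at -1.91 ± 0.60, and ptprc, higher at 1.54 ± 0.56. Their list had 4 genes higher and 9 lower. The oligodendrocyte list had 4 genes higher and 4 lower, and that of other brain regions and the pituitary 12 and 12. Meninges and connective tissue, the list of col6a3, had 7 higher and 3 lower, with a median of 0.03. List means on the fadrozole arrays against the control arrays ran from 0.03 to 0.14 against -0.01 to 0.21 for mature neurons (15 genes), from -0.11 to 0.17 against -0.06 to 0.26 for oligodendrocytes (8) and from -0.27 to 0.62 against -0.28 to 1.01 for microglia and leukocytes (13). They ran from -0.47 to 0.24 against -0.20 to 0.13 for red blood cells (12), from -0.06 to 0.26 against -0.30 to 0.34 for meninges and connective tissue (10) and from -0.56 to 0.04 against -0.35 to 0.24 for other brain regions and the pituitary (24). Telencephalic genes ran from 0.07 to 0.19 against -0.08 to 0.39 (18 genes). Endothelium, with 6 genes, ran from -0.09 to 0.89 against -0.60 to 0.45 and was the only one with a median difference beyond 0.3, at 0.53, with 4 genes higher and 2 lower. Its genes of smallest p were tie1 at 0.79 ± 0.47 and plvapb at 1.66 ± 1.06, whose 3 fadrozole arrays ran from -0.10 to 3.93. The lower ones, named after their values were seen, were mrc1a at -1.13 ± 1.20 and cldn5a at -0.40 ± 0.40. The means of each list overlapped between the groups. The microglia and leukocyte mean was highest on replicate 3 in both groups, at 0.62 on the fadrozole and 1.01 on the control array. Their part in the values of the radial glia genes was not tested.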

How the data were processed

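RNA from pooled telencephalons was labelled with biotin and hybridised to one-colour arrays, per the labels' protocols. The deposited values are ratios on a linear scale, and the 3 control arrays had a median of exactly 1 in all 15617 rows. What the authors did before that division is not given in the sources used here. The ratios ran from 0.0177 to 106.7, so no offset was added before log2, and signal strength is lost. Leaving out 115 control probe sets left 15502, of which 10795 had 1 symbol in GEO's platform annotation, 135 several and 4572 none; 1 symbol was updated from RefSeq names (GRCz12tu).

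Each array's shift (the median deviation from the probe set means) was removed from the log2 values. The groups were then compared, two-sided, with lmFit and eBayes (limma 3.58.1, R 4.3.3). Benjamini-Hochberg adjustment ran over all probe sets for the members and over all named genes (mean of a gene's probe sets) for other genes. A value after ± is the moderated standard error of limma where SD is not written, with 3 arrays in each group. The fit was tested on simulated data. The labels do not say whether the pools were independent, so p-values measure only the spread between arrays, whose small number limits the precision.

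The members and lists were chosen with earlier results of these data known. List genes were matched by symbol only. All members are named, with up to 3 genes of smallest p per related list, and 2 per marker list whose median differed by over 0.3. Outside that rule fall the paralogs slc1a3a and glulb, the 5 retinoid carrier genes and fabp3, gja1b, mrc1a and cldn5a. The same holds for hoxb5a, pax7a, zic4, pmp22a, pmp22b, lgals9l1, ptprc and col6a3. No nucleotide or protein sequence of the members was used here.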

Additional observations from a re-analysis of the deposited data

How the results depend on the processing

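Under every alternative run, limma called 0 of the 8 genes and 0 of all probe sets at an adjusted p of 0.05, and 0 of the 8 had an unadjusted p under 0.05. The median of the 8 differences ran from -0.03 with quantile normalisation to 0.02 with array weights, and from -0.05 to 0.04 when any 1 array was left out. The sign turned in 3 of 40 values of single genes under other scalings, array weights or the larger slide run alone, and in 6 of 48 when 1 array was left out. The first were fabp7a at -0.045 with quantile normalisation, and gfap at -0.030 and glula at 0.12 in the larger slide run alone. The blocks, robust eBayes and the filter on probe set suffixes leave the values of the 8 genes unchanged by construction. Leaving out 1 array, the ranges were -0.025 to 0.37 for gfap, -0.013 to 0.29 for fabp7a, -0.25 to 0.19 for glula and -0.022 to 0.13 for slc1a2b. The signs of vim, s100b, mdka and mdkb turned under none of these. Without fadrozole replicate 2, however, vim was at only -0.007 and mdkb at only -0.009. Of related genes, run as alternatives chosen after seeing the data, gja1b turned, with a range of -0.31 to 0.13. Over all probe sets, unadjusted p under 0.05 was found for 655 in the fit reported, 338 with quantile normalisation and 994 without control replicate 2. The cause of these shifts was not tested.

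The labels state no model for the groups, so replicate numbers were not taken as pairs. Deviations of same-numbered arrays nevertheless correlated across probe sets at 0.06, 0.19 and 0.09, each array best with its own number. Deviations sum to 0 over the 3 arrays of a group, so these correlations are tied together and are not 3 separate results. Fadrozole replicate 1 with control replicate 3 was at 0.03, and fadrozole replicate 3 with control replicate 1 at 0.02. What same-numbered arrays share was not tested. The number as a replicate block leaves each difference, and so the median of 0.02, unchanged by construction; with it 0 probe sets passed the adjusted test, and 842 had an unadjusted p under 0.05. Signal over background is unknown, so no limit by signal strength can be given.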
